A study of Homo sapiens with 9 samples.

Results

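SH-Sy5y cells, a human neuroblastoma line that keeps many traits of sympathetic neurons, were transfected with 20 nM of a miR-1229-3p mimic and compared with cells that received a negative control oligonucleotide (Ctrl.). The comparison holds 6 of the 9 libraries of the series, 3 at 20 nM and 3 of Ctrl., and covers all 14943 genes with an estimated count. Each Ctrl. culture received 40 pmol of the control oligonucleotide, and each 20 nM culture 40 pmol of mimic with 0 pmol of the control oligonucleotide, both by lipofection. Polyadenylated RNA was taken 48 h later. The control oligonucleotide was wholly replaced, so the presence of the mimic and the absence of that oligonucleotide cannot be told apart. One cell line was used, and RNA from a pair of wells was pooled where the study could, so that p-values measure the spread between libraries, which may be partly technical. The mimic itself is not read in polyadenylated RNA. In RNA from whole cultures, fewer cells of a kind and less RNA per cell cannot be told apart.

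A microRNA guides an Argonaute protein to messenger RNAs, mostly through its seed, bases 2 to 8 from its 5′ end. A match to the seed in the 3′ untranslated region (UTR) leads to deadenylation, decay and less translation of the message. An 8-mer match, which pairs with the whole seed and has an A opposite base 1, lowers messages most as a rule, followed by the 7-mers and the 6-mer. miR-1229-3p lies within MGAT4B, a gene of N-glycan branching.

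The mature sequence is shown because the matches below are read from it, with the seed in capitals (RefSeq, GRCh38.p14, chromosome 5, 179798278 to 179798300, minus strand).
hsa-miR-1229-3p: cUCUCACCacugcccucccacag
In DNA letters on the message strand, the 8-mer is GGTGAGAA, the 7-mer of bases 2 to 8 is GGTGAGA, the 7-mer of bases 2 to 7 with A is GTGAGAA, and the 6-mer is GTGAGA. In the longest annotated UTR (GENCODE 44, GRCh38.p14) of 13951 genes, 5.3% had an 8-mer, 25.2% a 7-mer or 8-mer and 42.3% at least the 6-mer. Of the 15 genes with the largest fall described below, 7 had a 7-mer or 8-mer, and windows of 23 bases that end at the match are shown for 6 of them so that the matches can be compared. All lie in the longest annotated 3′ UTR of the gene, and capitals mark the match. Part of such a UTR can be coding sequence in other transcripts of the same gene. The window of ZNF780B may be such sequence, which was not tested.
EIF4G2, 8-mer: gggtgtgaaacaaatGGTGAGAA
HIPK2, 8-mer: ttttgattgaaagatGGTGAGAA
NTNG2, 8-mer: cgtccgaggccgggcGGTGAGAA
ZNF780B, 8-mer: cagagaattcatactGGTGAGAA
SLC25A20, 7-mer of bases 2 to 8: caaggggaggggaatGGTGAGAt
MMD, 7-mer of bases 2 to 8: ggcacttgggagtggGGTGAGAg
The window of EIF4G2 lies at chr11:10797169-10797191 on the minus strand, that of HIPK2 at chr7:139565502-139565524 (minus), and that of NTNG2 at chr9:132242178-132242200 (plus). The windows of ZNF780B, SLC25A20 and MMD lie at chr19:40034188-40034210, chr3:48857598-48857620 and chr17:55394269-55394291, all on the minus strand. In the windows of EIF4G2, HIPK2, ZNF780B and SLC25A20 the base before the match pairs as well, so that pairing runs through base 9 of the microRNA, and in those of NTNG2 and MMD it ends at base 8. The UTR of HIPK2 has 2 matches, that of ZNF780B 3 and that of SLC25A20 2. IGFBPL1 has 1 match, a 7-mer with A.

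The 6 libraries held 18.4 to 28.2 M estimated counts. One of them, 20 nM replicate 3, stood apart: on the first principal component, with 42.5% of the variance, it lay at 45.9 and the other 5 between -18.7 and 6.52. Its counts differed from those of 20 nM replicates 1 and 2 with a chi-square of 46.4 and 36.7 per degree of freedom, against 8.39 between the other two and 4.99 to 7.61 within Ctrl. Its deviation followed base composition. Among 11348 genes with a mean of at least 5 CPM (counts scaled to the library size by TMM), Spearman's rho across genes between a library's deviation and the GC content of the transcript was 0.66 in 20 nM replicate 3 and between -0.16 and 0.16 in the other 5. The deviation is from the mean of those other 5, and points share library and base composition, so these values are a description. When the genes were split by GC content into 4 bins of equal number, those of the lowest bin (up to 41.5% GC) lay 0.29 lower in replicate 3 on the log2 scale at the median, and those of the highest bin (from 56.6% GC) 0.28 higher. Its part in single results was not tested.

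**Figure D1:**
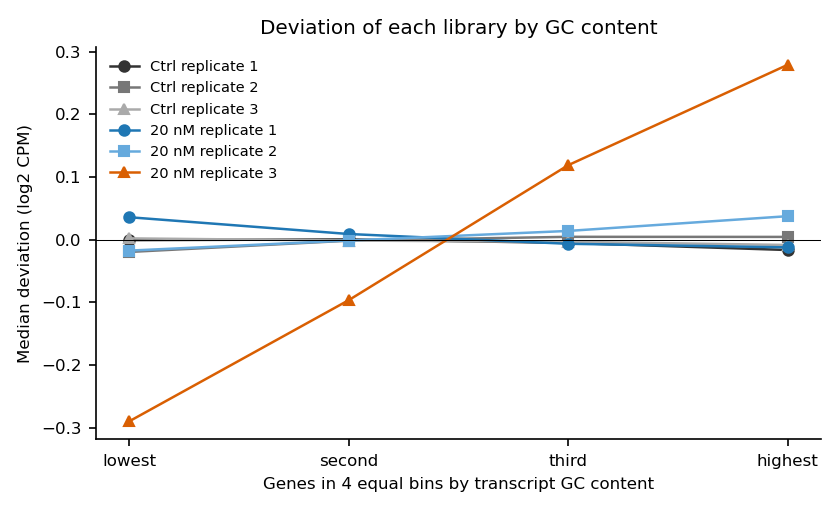
Median deviation of each library from the mean of the 5 libraries other than 20 nM replicate 3 (y axis, log2 CPM) in 4 equal bins of genes by GC content of the transcript (x axis). The line of 20 nM replicate 3 runs from -0.29 to 0.28, and the other 5 lines stay between -0.019 and 0.038.

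All 18 markers of the adrenergic state of neuroblastoma were in the table, with a sum of 9136 to 9496 CPM in Ctrl. and 8957 to 10777 CPM at 20 nM, where the highest value was that of replicate 3. Markers of other cell types were near 0: those of epithelium summed to at most 7.68 CPM in any library (4 of 10 in the table), of leukocytes to at most 7.03 CPM (3 of 10) and of glia and Schwann cells to at most 7.98 CPM (4 of 10). PTPRC, KRT8, KRT19 and SOX10 were not among the genes tested. Mesenchymal-type markers (14 of 16 in the table) summed to 1653 to 1791 CPM in Ctrl. and 1729 to 1763 CPM at 20 nM, and fibroblast markers (9 of 10) to 757 to 893 and 839 to 909 CPM.

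At 20 nM, 2074 of 14943 genes, the DEGs, differed from Ctrl. at a Benjamini-Hochberg adjusted p under 0.05 (edgeR quasi-likelihood test over all 9 libraries). This is 13.9% of the genes tested and the background for the counts of this fit. Counts from other fits have backgrounds of their own, given with the gene lists. The fit had 1 surrogate variable, a covariate estimated from variation that the groups leave, which loaded most on 20 nM replicate 3 (0.91). Higher genes numbered 1165 (7.8%) and lower genes 909 (6.08%). Changes were mostly small: 270 of the higher and 150 of the lower genes moved by more than 0.5 on the log2 scale, and 41 and 29 by more than 1. The median log2 fold change was 0.33 among higher genes, -0.30 among lower genes and -0.00016 over all genes. The 3 libraries of 20 nM lay wholly above the 3 of Ctrl. in 820 of the 1165 higher genes and wholly below in 614 of the 909 lower genes, against 15.2% and 13.7% of all genes tested. With the replicate number as a block beside the surrogate variable, 3884 genes passed (2100 higher, 1784 lower). Another fit kept this block but dropped the surrogate variable, and 2039 genes passed, of which 1282 were shared with the 2074 DEGs. Below, "under the block" refers to that fit, in which pairing was added and the surrogate variable removed together. Of 156 genes described and called, 34 lost their call in that fit. With the block beside the surrogate variable 2 did, TH and STMN4.

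Leaving out 20 nM replicate 3 raised the number to 2656, with 1462 higher (9.78%) and 1194 lower (7.99%). Of the genes called with all libraries, 1135 higher and 870 lower were called in the same direction without it, 30 and 39 were lost, and 0 turned. The surrogate variable loaded on replicate 3 at 0.91, so the fit with all libraries already gave that library little weight. Agreement between the fits with and without replicate 3, here and below, is therefore close to fixed in advance and is no independent support. In replicate 3 itself, 893 of the 1165 higher genes (76.7%) lay above the Ctrl. mean and 674 of the 909 lower genes (74.1%) below it. The difference of replicate 3 from Ctrl. and that of replicates 1 and 2 share the Ctrl. libraries. With no surrogate variable the number was 954, and a GC correction with no surrogate variable gave 1855 of 13951 genes, of which 1421 were also called in the first fit.

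**Figure D2:**
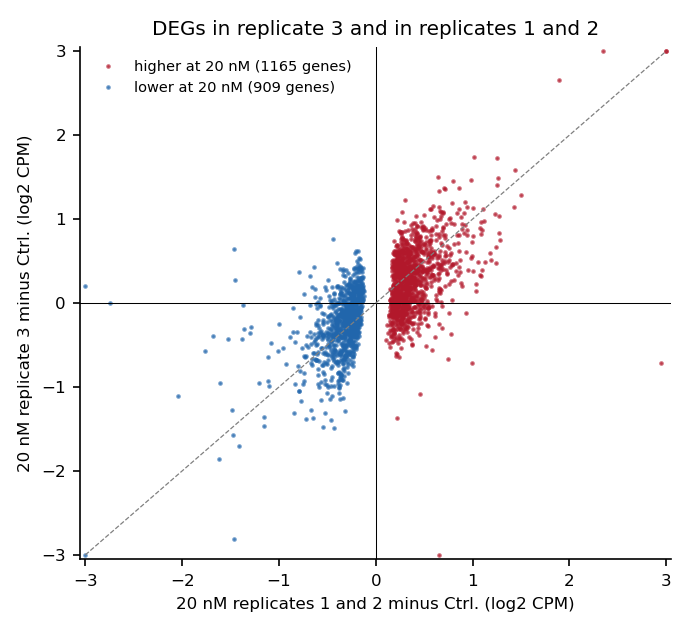
Each point is a DEG (1165 higher, 909 lower), with its difference from the Ctrl. mean in 20 nM replicates 1 and 2 (x axis) and in replicate 3 (y axis), both in log2 CPM and drawn at the edge where beyond 3. Most points share the sign of both axes, but 272 higher and 235 lower genes lie on the other side of 0 in replicate 3 or at it.

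The 15 genes with the largest fall among those that met set conditions are described first. The conditions were a mean of at least 5 CPM, no overlap between the groups and the same call without replicate 3. Some DEGs outside these conditions moved further. EIF4G2 (chromosome 11, 10797050 to 10808940, minus strand), an initiation factor that acts without the cap-binding protein, was at 1125, 1132 and 1161 CPM in Ctrl. and 489.5, 536 and 443 CPM at 20 nM. All 3 libraries at 20 nM lay far below Ctrl., with replicate 3 the lowest, and the change was -1.16 on the log2 scale (SE 0.07, edgeR adjusted p = 2.16e-06; -1.16 without replicate 3). IGFBPL1 (chromosome 9, 38406528 to 38424454, minus strand), a secreted relative of the insulin-like growth factor binding proteins, was at 561, 525 and 581 CPM in Ctrl. and 247, 272 and 279 CPM at 20 nM (log2 fold change -1.14, SE 0.08, edgeR adjusted p = 4.78e-06). HIPK2 (chromosome 7, 139561570 to 139777998, minus strand), a nuclear kinase that acts on p53, was at 135, 121 and 128 CPM in Ctrl. and 65.0, 66.1 and 88.0 CPM at 20 nM. Replicate 3 was its highest 20 nM library and still lay below every Ctrl. library (log2 fold change -0.997, SE 0.06, edgeR adjusted p = 2.16e-06). SLC25A20 (chromosome 3, 48856926 to 48898904, minus strand), the carrier that brings acylcarnitines into mitochondria, was at 17.5, 17.7 and 19.2 CPM in Ctrl. and 9.33, 9.72 and 10.9 CPM at 20 nM (log2 fold change -0.98, SE 0.12, edgeR adjusted p = 0.00026).

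SFT2D3, of a family of Golgi transport proteins, had a larger fall at a low level (chromosome 2, 127701497 to 127705242, plus strand). It was at 12.3, 17.8 and 10.9 CPM in Ctrl. and 4.52, 4.09 and 3.61 CPM at 20 nM (log2 fold change -1.55, SE 0.28, edgeR adjusted p = 0.00298). GPC2, a glypican of neurons and neuroblastoma that carries heparan sulfate, was at 131, 129 and 127 CPM in Ctrl. and 70.0, 69.5 and 97.1 CPM at 20 nM. Its replicate 3 was nearer to Ctrl. than the other two, with no overlap (log2 fold change -0.90, SE 0.06, edgeR adjusted p = 3.25e-06). MIS18A, which helps to place CENP-A at centromeres, was at 24.4, 22.0 and 23.5 CPM in Ctrl. and 12.3, 13.7 and 16.9 CPM at 20 nM (log2 fold change -0.87, SE 0.09, edgeR adjusted p = 8.15e-05). MMD, a multipass membrane protein of the PAQR family, was at 105, 112 and 108 CPM in Ctrl. and 61.8, 64.9 and 48.3 CPM at 20 nM, with replicate 3 the lowest of all (log2 fold change -0.76, SE 0.06, edgeR adjusted p = 9.52e-06). NTNG2, the membrane-anchored netrin-G2, was at 32.7, 34.5 and 30.9 CPM in Ctrl. and 18.04, 19.7 and 15.8 CPM at 20 nM (log2 fold change -0.77, SE 0.08, edgeR adjusted p = 6.56e-05). Syndecan SDC4 (19.4, 18.9 and 20.4 CPM in Ctrl. and 10.6, 12.5 and 10.0 CPM at 20 nM) and the zinc finger gene ZNF780B (35.3, 31.0 and 30.0 CPM in Ctrl. and 19.5, 17.5 and 15.4 CPM at 20 nM) fell by 0.79 and 0.76 on the log2 scale (edgeR adjusted p = 0.00113 and 0.000159). The remaining 4 of the 15 lower genes were SERTM2 (-0.78), SPACA6 (-0.89) and 2 genes without a symbol, ENSG00000262633 (-0.79) and ENSG00000285976 (-2.02). The last was uneven, at 98.6, 69.8 and 43.3 CPM in Ctrl. and 26.9, 1.76 and 2.35 CPM at 20 nM, so its fold change is uncertain. Of the 15, 7 had a 7-mer or 8-mer match in the longest annotated UTR, ZNF780B among them, and 3 only a 6-mer.

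The 15 genes with the largest rise were taken under the same conditions. Among them was BRINP2 (chromosome 1, 177170958 to 177282422, plus strand), a neural gene of the BMP and retinoic acid response. It was at 4.77, 6.27 and 6.37 CPM in Ctrl. and 13.3, 14.3 and 15.4 CPM at 20 nM (log2 fold change 1.21, SE 0.15, edgeR adjusted p = 0.000266). Replicate 3 was its highest library. NRP1 (chromosome 10, 33177492 to 33336262, minus strand), a co-receptor of class 3 semaphorins and vascular endothelial growth factor, was at 8.84, 9.30 and 6.26 CPM in Ctrl. and 17.5, 15.5 and 9.40 CPM at 20 nM. Replicate 3 exceeded the highest Ctrl. library only narrowly (log2 fold change 1.13, SE 0.15, edgeR adjusted p = 0.000343). ADAMTS2, which trims procollagens, was at 8.59, 9.46 and 5.14 CPM in Ctrl. and 14.9, 18.2 and 10.5 CPM at 20 nM (log2 fold change 1.197, SE 0.21, edgeR adjusted p = 0.00262), and its call was lost with a GC correction in place of the surrogate variable (edgeR adjusted p = 0.0558). ITGA4, the integrin alpha 4 chain, was at 8.91, 8.54 and 7.78 CPM in Ctrl. and 17.1, 15.7 and 11.1 CPM at 20 nM (log2 fold change 1.01, SE 0.11, edgeR adjusted p = 0.000108). THSD4, which binds fibrillin, was at 25.4, 25.3 and 28.1 CPM in Ctrl. and 50.01, 50.9 and 47.9 CPM at 20 nM (log2 fold change 0.93, SE 0.07, edgeR adjusted p = 5.12e-06).

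SNRPC (chromosome 6, 34757505 to 34773857, plus strand), a protein of the U1 splicing particle, was at 38.6, 45.0 and 45.2 CPM in Ctrl. and 91.6, 91.3 and 78.5 CPM at 20 nM (log2 fold change 1.08, SE 0.08, edgeR adjusted p = 9.52e-06). PKIA, an inhibitor of protein kinase A, was at 13.01, 15.6 and 15.8 CPM in Ctrl. and 30.4, 32.5 and 28.8 CPM at 20 nM (log2 fold change 1.08, SE 0.10, edgeR adjusted p = 3.21e-05). UHMK1, a kinase that acts on stathmin, was at 76.5, 68.5 and 75.6 CPM in Ctrl. and 148, 133 and 112 CPM at 20 nM (log2 fold change 0.95, SE 0.06, edgeR adjusted p = 2.16e-06). UBE2V1, an inactive partner of a ubiquitin-conjugating enzyme, was at 63.3, 71.3 and 67.3 CPM in Ctrl. and 142, 138 and 94.2 CPM at 20 nM (log2 fold change 1.08, SE 0.07, edgeR adjusted p = 2.16e-06). It shares sequence with the readthrough gene PEDS1-UBE2V1, which was at 8.13, 4.38 and 3.35 CPM in Ctrl. and 7.87, 5.03 and 38.7 CPM at 20 nM, high in replicate 3. Their sum was 71.4, 75.7 and 70.6 CPM in Ctrl. and 149.6, 142.8 and 132.9 CPM at 20 nM, which is more even than either gene. RELL1, CILP2, TGM2 (transglutaminase 2), PCDHA8 (a protocadherin of the alpha cluster), ANGPTL2 (a secreted angiopoietin relative) and ENSG00000288658 rose by 0.93 to 1.06 on the log2 scale (edgeR adjusted p from 0.0002 to 0.011). Without 20 nM replicate 2 the call of TGM2 was lost (log2 fold change 0.93, edgeR adjusted p = 0.0524). Of the 15 higher genes, 3 had a 7-mer or 8-mer match and 5 only a 6-mer. All 15 lower and all 15 higher genes were chosen to be called also without replicate 3, and all 30 were called under the replicate block as well.

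**Figure D3:**
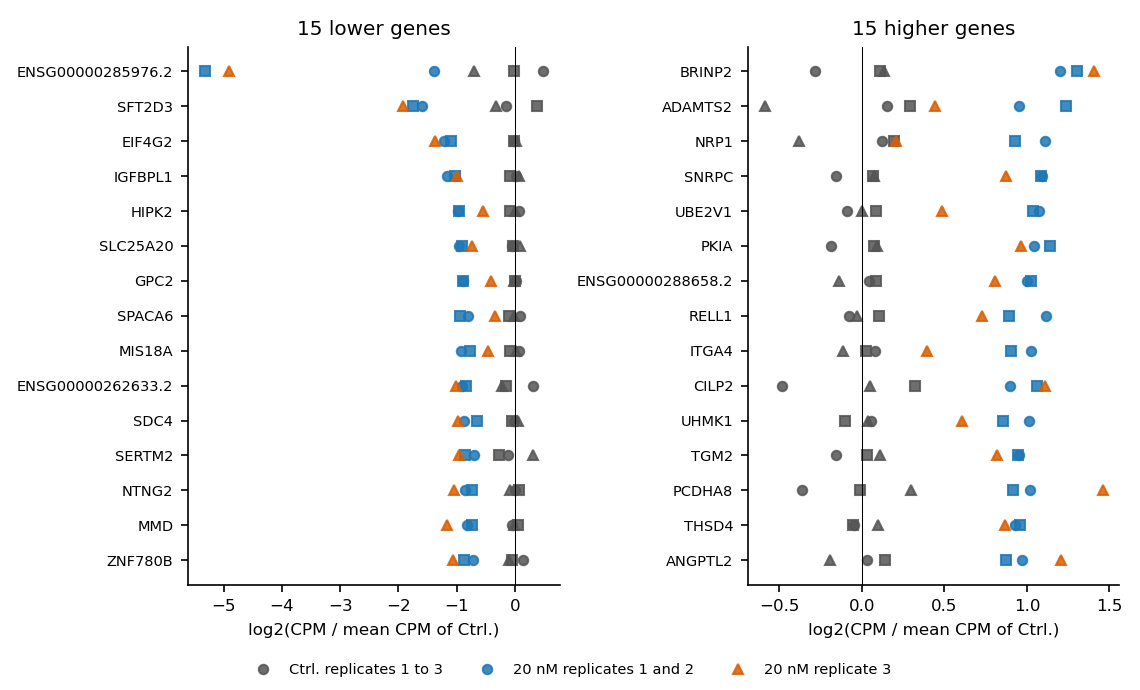
Level of the 15 lower (left) and 15 higher (right) genes in each library, as log2 of CPM over the mean CPM of Ctrl. (x axis), with circles, squares and triangles for replicates 1, 2 and 3. No 20 nM library overlaps Ctrl. in any of the 30 genes, which the choice of genes required, and replicate 3 (triangle) is the 20 nM library nearest to Ctrl. in NRP1, ITGA4, ADAMTS2, UBE2V1, SPACA6 and GPC2, among others.

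Among abundant genes the changes were smaller. RGS5, which speeds up the GTPase of G protein alpha subunits, rose from 3207, 3295 and 3533 CPM to 5358, 5159 and 4124 CPM (log2 fold change 0.66, SE 0.06, edgeR adjusted p = 3.21e-05). GNB1, a G protein beta subunit, was at 608, 629 and 621 CPM in Ctrl. and 839, 822 and 999 CPM at 20 nM (log2 fold change 0.41, SE 0.04, edgeR adjusted p = 8.34e-05). HSP90AA1, a cytosolic chaperone, APP, the amyloid precursor, and the glycolytic enzyme ENO1 rose by 0.32, 0.24 and 0.16 on the log2 scale (edgeR adjusted p = 0.0169, 0.0136 and 0.0379). ENO1 was called in 20 of 28 other settings and was lost when any of the 3 Ctrl. libraries, 20 nM replicate 2 or 10 nM replicate 3 was left out (0.12 to 0.17). The call of APP was lost without 20 nM replicate 2 (0.26) or Ctrl. replicate 3 (0.19), and that of HSP90AA1 without 20 nM replicate 2 (0.25) or Ctrl. replicate 1 (0.27). On the lower side, TUBA1A, a tubulin of neurons, was at 1438, 1459 and 1589 CPM in Ctrl. and 1108, 1156 and 1239.9 CPM at 20 nM (log2 fold change -0.43, SE 0.06, edgeR adjusted p = 0.000922). UNC5B, a netrin receptor, was at 1146, 1165 and 1091 CPM in Ctrl. and 864, 907 and 1048 CPM at 20 nM, with replicate 3 just under the lowest Ctrl. library (log2 fold change -0.37, SE 0.05, edgeR adjusted p = 0.000728). DPYSL3, of the collapsin response mediator family, fell by 0.31 (edgeR adjusted p = 0.005).

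The noradrenergic identity genes did not move together. SLC6A2, the noradrenaline transporter, was at 858, 793 and 893 CPM in Ctrl. and 642, 613 and 743 CPM at 20 nM (log2 fold change -0.45, SE 0.07, edgeR adjusted p = 0.000761), and its UTR has 2 matches of bases 2 to 8. DDC, which makes dopamine from its precursor, was at 123, 129 and 148 CPM in Ctrl. and 185, 189 and 215 CPM at 20 nM (log2 fold change 0.46, SE 0.07, edgeR adjusted p = 0.000742). The vesicular transporter SLC18A1 rose by 0.19 (edgeR adjusted p = 0.0245). The transcription factor ISL1 fell by 0.27 (edgeR adjusted p = 0.00717). In all, 2 of the 18 adrenergic markers rose and 6 fell, 1 of them TH at under 1 CPM in every library and 1 of them TUBB3, whose call was lost under the block. Of the mesenchymal-type markers CD44, a hyaluronan receptor, was the one called, at 1.34, 1.35 and 1.38 CPM in Ctrl. and 3.22, 3.397 and 2.92 CPM at 20 nM (log2 fold change 1.31, SE 0.23, edgeR adjusted p = 0.00293). Of the fibroblast markers PDGFRA and LUM were higher, with LUM at 14.5 CPM in replicate 3, below every Ctrl. library. The call of LUM was lost under the block (edgeR adjusted p = 0.985).

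Gene lists were then read against the background of 7.8% higher and 6.08% lower. Without replicate 3 it was 9.78% and 7.99%. Under the block 1142 genes were higher and 897 lower of 14943, and with the GC correction 1006 and 849 of 13951. The background was not matched for level. Among genes with a UTR, the median level was 50.8 CPM for higher, 59.4 CPM for lower and 27.6 CPM for uncalled genes, so lists of abundant genes may exceed it for that reason. In metabolism, 8 of 20 glycolysis genes were higher and 0 lower, with a median log2 fold change of 0.15 over the list against -0.00016 over all genes. HK2, a hexokinase, which starts the pathway, was at 84.9, 91.8 and 82.1 CPM in Ctrl. and 120.2, 135 and 145 CPM at 20 nM (log2 fold change 0.55, SE 0.07, edgeR adjusted p = 0.000326). The lactate transporters SLC16A3 and SLC16A1 rose by 0.55 and 0.50 (edgeR adjusted p = 0.0276 and 0.000541). The call of SLC16A3 was lost when any Ctrl. library or 20 nM replicate 1 or 2 was left out (0.53 to 0.60, edgeR adjusted p from 0.0535 to 0.0816). Without replicate 3, 10 glycolysis genes were higher, and 8 were with the GC correction. Of 27 genes of cholesterol synthesis and uptake, 6 were higher and 1 lower (median 0.13), and 9 and 2 without replicate 3. Among them CYP51A1, which removes a methyl group from lanosterol, was at 69.7, 69.3 and 73.3 CPM in Ctrl. and 97.7, 91.4 and 84.97 CPM at 20 nM (log2 fold change 0.43, SE 0.05, edgeR adjusted p = 0.000197), and MSMO1 and IDI1 rose by 0.50 and 0.35 (edgeR adjusted p = 0.00148 and 0.00491). MSMO1 and IDI1 were lost under the replicate block (edgeR adjusted p = 0.0737 and 0.0501). The lower member was LBR (-0.33, edgeR adjusted p = 0.000457), a sterol reductase that also anchors the nuclear lamina. Of 18 genes of fatty acid synthesis and desaturation, 3 were higher and 0 lower (4 and 1 without replicate 3), with ACLY, which makes cytosolic acetyl-CoA, at 356, 374 and 371 CPM in Ctrl. and 510.2, 521 and 689 CPM at 20 nM (log2 fold change 0.46, SE 0.04, edgeR adjusted p = 3.21e-05).

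Mitochondria hold proteins of nuclear and of mitochondrial genes. Nuclear subunits of complex I had 1 higher and 1 lower member of 38 (median 0.081), and those of complexes II to V 3 higher and 0 lower of 41 (median 0.072), both shares under the background. Without replicate 3 complex I had 5 and 1 (3 and 0 under the block), and complexes II to V 6 and 0. NDUFA6, an accessory subunit, was the higher one in complex I (log2 fold change 0.67, SE 0.10, edgeR adjusted p = 0.000769), whereas NDUFB2 was lower (-0.23, edgeR adjusted p = 0.0218) in the fit with a surrogate variable and at 0.10 under the block (edgeR adjusted p = 0.677). Of the 13 protein genes of mitochondrial DNA 0 passed (edgeR, median -0.095; 0 also in DESeq2, and 0 at an unadjusted p under 0.05), and 2 did under the block. For the most abundant, MT-CO1 and MT-CO3, the log2 fold changes were -0.11 and 0.067 (edgeR adjusted p = 0.662 and 0.566). With the block beside the surrogate variable both passed, at -0.30 for MT-CO1 and 0.089 for MT-CO3 (edgeR adjusted p = 0.000128 and 0.029). Mitochondrial ribosomal proteins had 7 higher and 1 lower of 78 (median 0.077), and 14 and 2 under the block, against 12 and 2 without replicate 3. MRPL19 led them (38.9, 39.8 and 38.7 CPM in Ctrl. and 61.4, 62.3 and 44.4 CPM at 20 nM; log2 fold change 0.68, SE 0.06, edgeR adjusted p = 2.28e-05). In the tricarboxylic acid cycle, FH and CS were higher and IDH2 lower (0.21, 0.17 and -0.18) of 19 genes, 7 and 1 without replicate 3 and 4 and 1 with the GC correction, and CS and IDH2 were lost under the block (edgeR adjusted p = 0.483 and 0.491). Of 25 genes of fatty acid import and oxidation, SLC25A20 was the lower one and ACSL3 the higher (0.36, edgeR adjusted p = 0.00115, lost under the block at 0.123).

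The endoplasmic reticulum folds proteins that leave the cell. Of 29 chaperones and genes of the unfolded protein response, 9 were higher and 0 lower (median 0.13), with 15 higher under the block and 14 without replicate 3. CANX, the lectin chaperone calnexin, was at 390.4, 406 and 429 CPM in Ctrl. and 529, 523 and 508 CPM at 20 nM (log2 fold change 0.36, SE 0.05, edgeR adjusted p = 0.000521). SIL1, a nucleotide exchange factor for the chaperone BiP, was at 11.8, 13.2 and 12.1 CPM in Ctrl. and 17.7, 19.2 and 23.1 CPM at 20 nM (log2 fold change 0.54, SE 0.10, edgeR adjusted p = 0.00353), and DERL1, a channel component of protein removal from the reticulum, rose by 0.39 (edgeR adjusted p = 0.00057). In the secretory pathway 6 of 36 genes were higher and 0 lower (median 0.051), and 3 under the block. The receptors KDELR2 and KDELR3, which return escaped proteins to the reticulum, rose by 0.53 and 0.67 (edgeR adjusted p = 0.000162 and 0.0175), with KDELR2 at 135, 144 and 147 CPM in Ctrl. and 210.2, 199.9 and 167 CPM at 20 nM. LMAN1, a cargo receptor, rose by 0.33 and was lost under the block (edgeR adjusted p = 0.172). Of 21 genes that shape the reticulum, 4 were lower and 3 higher (2 and 3 with the GC correction). RTN1 and ARL6IP1 fell by 0.65 and 0.64 (edgeR adjusted p = 9.79e-06 and 2.78e-05), and both have a 7-mer of bases 2 to 8 and were picked by the study. LNPK and REEP3 rose by 0.40 and 0.37 and were lost under the block (edgeR adjusted p = 0.0571 and 0.444). Of 31 genes of mitochondrial contact sites and the outer membrane, 4 were higher and 2 lower. SYNJ2BP, an outer membrane anchor with 3 matches, was at 62.2, 66.4 and 59.8 CPM in Ctrl. and 50.1, 49.9 and 42.7 CPM at 20 nM (log2 fold change -0.31, SE 0.06, edgeR adjusted p = 0.00377), and MTX3 fell by 0.41, while the calcium channel gene ITPR2 rose by 0.36 (edgeR adjusted p = 0.0117 and 0.00331).

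Genes of the integrated stress response were mixed. Of 27 members 3 were higher and 5 lower, but in replicate 3 the list lay 0.36 above Ctrl. at the median, and under the block 5 were higher and 1 lower. With the GC correction these were 5 and 0, and without replicate 3 5 and 5. DDIT4, an inhibitor of mTOR complex 1, was at 37.8, 48.7 and 40.2 CPM in Ctrl. and 61.5, 71.0 and 74.4 CPM at 20 nM (log2 fold change 0.62, SE 0.10, edgeR adjusted p = 0.00123), and VLDLR rose by 0.60 (edgeR adjusted p = 0.00175). GDF15, a secreted stress cytokine, was uneven within both groups, at 9.40, 10.8 and 19.2 CPM in Ctrl. and 6.36, 9.46 and 15.7 CPM at 20 nM, and its fall (-0.93, edgeR adjusted p = 0.0414) was lost under the block (edgeR adjusted p = 0.0642). PPP1R15A (-0.41) was lost as well (edgeR adjusted p = 0.669), and ASNS, asparagine synthetase, fell by 0.34 (edgeR adjusted p = 0.0333; 0.141 with the GC correction). Immediate early genes had 5 lower and 0 higher of 27, with JUN at 58.0, 52.2 and 67.2 CPM in Ctrl. and 40.7, 45.3 and 66.9 CPM at 20 nM (log2 fold change -0.52, SE 0.10, edgeR adjusted p = 0.00393). Its replicate 3 lay among the Ctrl. libraries, and JUN and IER2 were lost under the block (edgeR adjusted p = 0.126 and 0.381), while DUSP1, a phosphatase of MAP kinases, was called in both (log2 fold change -0.40, edgeR adjusted p = 0.00647). Under the block 3 members were lower, and with the GC correction 1.

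Microtubules carry cargo along neurites by means of motor proteins. Of 47 kinesins, dyneins and microtubule-binding proteins, 13 were lower and 2 higher (median -0.11), with 8 lower and 2 higher under the block, 13 and 4 without replicate 3 and 9 lower with the GC correction. DCX, a microtubule stabiliser of migrating neurons, was at 277, 233 and 312 CPM in Ctrl. and 180.5, 163 and 165 CPM at 20 nM, with no overlap between the groups (log2 fold change -0.68, SE 0.12, edgeR adjusted p = 0.00252). STMN4, of the stathmin family, which binds free tubulin, fell by 0.58 and was called in 18 of 28 other settings (edgeR adjusted p = 0.0421), and the adrenergic marker STMN2 fell by 0.27 (edgeR adjusted p = 0.0114). The third of the lower genes by size was TUBA1A, given above. TUBB3 went the other way in replicate 3, at 557, 548 and 613 CPM in Ctrl. and 474, 512 and 867 CPM at 20 nM, and its fall of 0.28 (edgeR adjusted p = 0.00561) was lost under the block, where the value was 0.065 (edgeR adjusted p = 0.754). Tubulin genes are near copies of each other, so their counts may be shared. The higher members were KIF16B and KIF21A (0.44 and 0.24), of which KIF21A was lost under the block (edgeR adjusted p = 0.234).

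Synaptic genes moved both ways. Of 48 genes of vesicles and exocytosis, 7 were higher and 8 lower (median -0.042), 5 and 5 under the block and 5 and 4 with the GC correction. SYN2, a synapsin, and RIMS2, an active zone scaffold, rose by 0.55 and 0.53 (edgeR adjusted p = 0.00186 and 0.00987). SYT5 and SYT4, synaptotagmins, and VAMP2, a vesicle SNARE, fell by 0.58, 0.38 and 0.34 (edgeR adjusted p = 0.028, 0.00102 and 0.0383; SYT5 at 0.102 with the GC correction). The rise of SYPL1 (0.83) and that of RIMS2 were lost under the block (edgeR adjusted p = 0.204 and 0.0562). Of 36 postsynaptic genes 3 were higher, led by SHANK3 (18.6, 21.7 and 21.0 CPM in Ctrl. and 29.1, 33.7 and 34.4 CPM at 20 nM; log2 fold change 0.60, SE 0.09, edgeR adjusted p = 0.00105), a scaffold of excitatory synapses, and 4 were lower. The lower ones with the largest change were DLGAP4 (-0.51), which binds the PSD-95 scaffold, and the kinases PAK3 (-0.42) and PAK1 (-0.38), with edgeR adjusted p = 0.000127, 0.0122 and 0.00402 (PAK3 at 0.104 with the GC correction). Of 41 voltage-gated ion channels 5 were higher, among them the potassium channel KCNH1 (log2 fold change 0.42, SE 0.07, edgeR adjusted p = 0.00167), and 1 lower, although the median of the list was -0.074.

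Receptors and ligands of axon guidance changed in 14 of 50 cases, 9 higher and 5 lower (median 0.11). Under the block 9 were higher and 2 lower, and without replicate 3 12 and 8. The co-receptors of semaphorins moved in opposite directions: NRP1 rose, as given above, and NRP2 was at 1.66, 1.95 and 1.75 CPM in Ctrl. and 0.670, 0.946 and 1.26 CPM at 20 nM (log2 fold change -1.18, SE 0.33, edgeR adjusted p = 0.0304), a low level whose call was lost under the block (edgeR adjusted p = 0.0667). SEMA4F, a semaphorin, and PLXNC1, a plexin, rose by 0.60 and 0.68 (edgeR adjusted p = 0.000541 and 0.0186; PLXNC1 at 0.0851 under the block). The ephrin EFNB2 fell by 0.50 (edgeR adjusted p = 0.000214). Of 34 receptor tyrosine kinases and neurotrophin receptors, 9 were higher and 1 lower (median 0.19). EGFR, the epidermal growth factor receptor, was at 148, 147 and 131 CPM in Ctrl. and 188, 188 and 165 CPM at 20 nM (log2 fold change 0.43, SE 0.06, edgeR adjusted p = 0.000443). PDGFRA and LTK rose by 0.53 and 0.44, and ERBB2 fell by 0.40 (edgeR adjusted p = 0.0169, 0.00314 and 0.0461; PDGFRA at 0.167 with the GC correction). ERBB2 was called in 18 of 28 other settings. Its call was lost without Ctrl. replicate 1 or 2, 20 nM replicate 1 or 2, or 10 nM replicate 2 or 3 (-0.34 to -0.41). Of 15 receptor tyrosine phosphatases 3 were higher, with PTPRE and PTPRU at 0.92 and 0.62, and 2 lower, with PTPRH (-0.87) lost under the block (edgeR adjusted p = 0.106), where 6 were higher and 2 lower (5 and 3 without replicate 3, 5 and 1 with the GC correction).

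Among genes of the cell surface and the matrix, more were higher than lower. Of 44 matrix protein genes 8 were higher and 0 lower (median 0.14), and 14 were higher without replicate 3. Besides THSD4, THBS2 (thrombospondin 2) and FBLN2 (fibulin 2) rose by 1.21 and 0.67 (edgeR adjusted p = 0.00759 and 0.0111). THBS2 was at a low level, 1.80, 2.11 and 1.64 CPM in Ctrl. and 4.02, 3.91 and 2.35 CPM at 20 nM, and both were lost with the GC correction (edgeR adjusted p = 0.0739 and 0.119). LOXL2, which cross-links collagen and stood in the hypoxia list, was at 14.7, 15.9 and 15.8 CPM in Ctrl. and 26.2, 30.4 and 27.1 CPM at 20 nM (log2 fold change 0.86, SE 0.12, edgeR adjusted p = 0.000443). Of 38 integrin and focal adhesion genes 9 were higher and 2 lower, and 6 and 1 with the GC correction. Next to ITGA4, ITGA6 was at 5.80, 5.14 and 5.59 CPM in Ctrl. and 9.21, 10.7 and 11.6 CPM at 20 nM (log2 fold change 0.82, SE 0.12, edgeR adjusted p = 0.000914), ITGB5 rose by 0.48 and TES fell by 0.35 (edgeR adjusted p = 0.00407 and 0.000521). Of 32 genes of glycosaminoglycan synthesis 7 were higher and 2 lower (8 and 0 under the block), led by CHPF (log2 fold change 0.65, SE 0.05, edgeR adjusted p = 9.52e-06), a chondroitin polymerising factor, and CHST7 (log2 fold change 0.52, SE 0.12, edgeR adjusted p = 0.0124). GLCE rose by 0.59 and was lost under the block (edgeR adjusted p = 0.199).

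Among cadherins and catenins, CTNNB1, the beta-catenin of adhesion and WNT signalling, was at 205, 228 and 201 CPM in Ctrl. and 323, 330.1 and 305 CPM at 20 nM, wholly above Ctrl. in every replicate (log2 fold change 0.63, SE 0.06, edgeR adjusted p = 2.91e-05). It was called in 28 of 28 other settings. CELSR2, a cadherin of planar polarity, was at 89.4, 83.0 and 92.3 CPM in Ctrl. and 144, 140.0 and 159.8 CPM at 20 nM (log2 fold change 0.67, SE 0.06, edgeR adjusted p = 3.52e-05), and CDH4 at 11.1, 11.5 and 13.4 CPM in Ctrl. and 20.8, 20.9 and 33.0 CPM at 20 nM (log2 fold change 0.76, SE 0.13, edgeR adjusted p = 0.0024). CTNNA1 and CELSR3 were lower (-0.26 and -0.26), CELSR3 not under the block (edgeR adjusted p = 0.158). With 5 higher and 2 lower of 26, the median of the list was -0.026. In Notch and WNT signalling 8 of 44 were higher and 0 lower (median 0.10), and 12 and 1 without replicate 3. LGR4, a receptor of R-spondins, DLK1, a Notch ligand relative, and the transcription factor TCF7 rose by 0.47, 0.45 and 0.41 (edgeR adjusted p = 0.0114, 0.00146 and 0.00134). Of 36 genes of TGF-beta and BMP signalling 4 were higher, with GREM1, a BMP antagonist, at 0.76, and 4 lower, with INHBA at -0.64 and ID1 at -0.25 (edgeR adjusted p = 0.011, 0.0181 and 0.00445; INHBA at 0.249 with the GC correction).

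**Figure D4:**
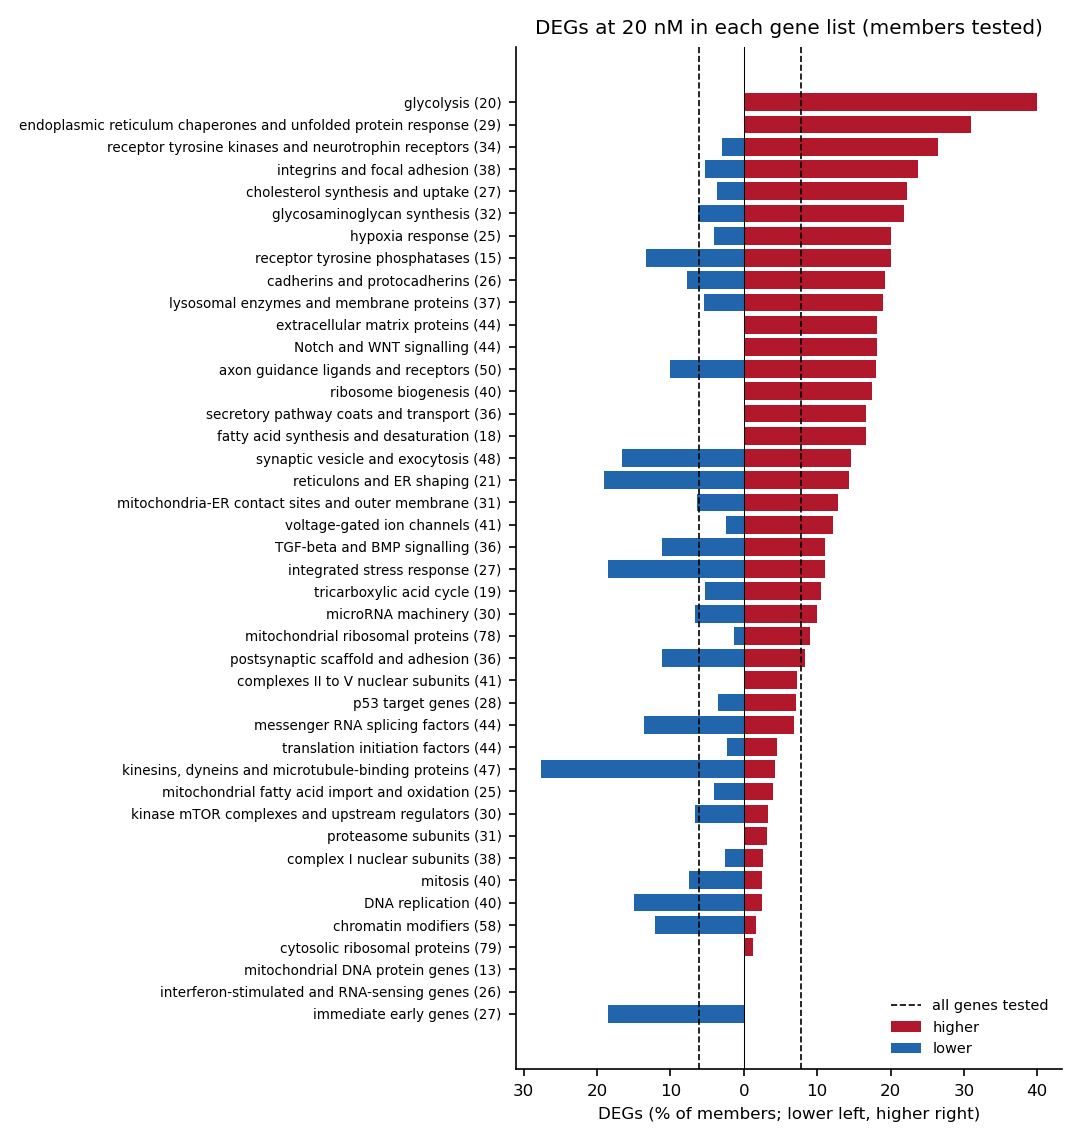
Share of the members tested of each gene list other than the putative targets (in parentheses) that were DEGs at 20 nM, lower to the left and higher to the right (x axis, %). Dashed lines mark the background of 6.08% and 7.8%. Glycolysis (40.0% higher) and microtubule genes (27.7% lower) reach furthest.

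In the nucleus, 7 of 40 genes of ribosome biogenesis were higher and 0 lower (median 0.11), and 4 with the GC correction. The transcription factor RRN3 of RNA polymerase I rose by 0.23 and the acetyltransferase NAT10 by 0.21 (edgeR adjusted p = 0.0131 and 0.0472; RRN3 at 0.348 under the block, NAT10 at 0.0971 with the GC correction). NAT10 was called in 14 of 28 other settings. Chromatin modifiers had 7 lower and 1 higher of 58 (median -0.053), 4 and 2 under the block and 10 and 2 without replicate 3. TET3, which oxidises methylcytosine, and EZH2, a histone methyltransferase, fell by 0.41 and 0.31 (edgeR adjusted p = 0.00183 and 0.00721; EZH2 at 0.109 with the GC correction), and HDAC1 rose by 0.29 (edgeR adjusted p = 0.00702). Splicing factors had 6 lower and 3 higher of 44 (median -0.036). PTBP2, the neuronal polypyrimidine tract protein, was at 41.5, 35.5 and 37.9 CPM in Ctrl. and 29.0, 26.2 and 22.2 CPM at 20 nM (log2 fold change -0.45, SE 0.08, edgeR adjusted p = 0.00233). Its paralogue PTBP1 rose by 0.18 (edgeR adjusted p = 0.043), and NOVA1 fell by 0.34 (edgeR adjusted p = 0.0401). PTBP1 was called in 17 and NOVA1 in 20 of 28 other settings. The call of PTBP1 was lost when any Ctrl. library or 20 nM replicate 1 or 2 was left out (0.13 to 0.21). Of 40 DNA replication genes 6 were lower and 1 higher (median -0.13), but 3 and 1 under the block, 11 and 1 without replicate 3 and 2 and 1 with the GC correction. MCM7, a subunit of the replicative helicase, was at 595, 563 and 558 CPM in Ctrl. and 471, 475 and 625 CPM at 20 nM, highest in replicate 3, and its fall of 0.29 was lost under the block (edgeR adjusted p = 0.32). POLA1, a polymerase subunit, fell by 0.28 (edgeR adjusted p = 0.0131; 0.0819 with the GC correction) and POLD2 rose by 0.25 (edgeR adjusted p = 0.0123). Of 40 mitosis genes 3 were lower and 1 higher, 8 and 0 under the block, and 7 and 1 without replicate 3, and 7 and 2 with the GC correction. ANLN, the anillin of the cleavage furrow, was at 100.2, 96.6 and 103 CPM in Ctrl. and 70.7, 68.3 and 51.1 CPM at 20 nM (log2 fold change -0.50, SE 0.05, edgeR adjusted p = 7.4e-05).

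Ribosomes, initiation factors, proteasomes and lysosomes make and remove proteins. Of 79 cytosolic ribosomal proteins 1 was higher (RPL7A, log2 fold change 0.24, SE 0.06, edgeR adjusted p = 0.0242, lost under the block at 0.0605), although 77 of the fold changes lay above 0 (median 0.082), with 3 called without replicate 3, 3 under the block and 2 with the GC correction. Against the Ctrl. mean, the median of this list was 0.080 in 20 nM replicates 1 and 2 but -0.048 in replicate 3. Under the block the median was 0.040. Of 44 initiation factors (4 higher and 1 lower without replicate 3) EIF4G2 was lower, and EIF2A and EIF5A2 were higher (0.70 and 0.54), both lost under the block (edgeR adjusted p = 0.0568 and 0.268). Of 31 proteasome subunits 1 was higher (PSMD7, log2 fold change 0.19, SE 0.05, edgeR adjusted p = 0.0267), against 3 under the block and 4 without replicate 3. Of 30 genes of the mTOR complexes and their regulators (3 higher and 2 lower without replicate 3, 2 and 0 under the block) PDPK1 rose by 0.34 (edgeR adjusted p = 0.000933), and MTOR, which fell by 0.32, was at 131, 125 and 131 CPM in Ctrl. and 104, 106 and 134 CPM at 20 nM and was lost under the block (edgeR adjusted p = 0.169). Lysosomal genes had 7 higher and 2 lower of 37. GALC, a galactosidase of myelin lipids, was at 19.6, 18.3 and 19.6 CPM in Ctrl. and 30.2, 29.7 and 26.5 CPM at 20 nM (log2 fold change 0.66, SE 0.07, edgeR adjusted p = 8.56e-05), the protease gene CTSL rose by 0.41, and the proton pump subunit ATP6V1A fell by 0.47 (edgeR adjusted p = 0.0031 and 0.000197). Of 28 p53 targets (2 higher and 3 lower without replicate 3) ZMAT3 and BBC3 were higher (0.41 and 0.38), and the fall of GADD45A (-0.59) was lost under the block (edgeR adjusted p = 0.97). GADD45A was at 24.1, 28.8 and 35.6 CPM in Ctrl. and 18.7, 24.4 and 49.5 CPM at 20 nM. The groups overlapped, and the mean CPM did not fall (29.5 in Ctrl. and 30.9 at 20 nM). Of 26 interferon-stimulated and RNA-sensing genes 0 passed in edgeR and 0 in DESeq2 (1 under the block and 1 without replicate 3, and 4 at an unadjusted p under 0.05). Their median was 0.11 (0.14 without replicate 3), with 22 of 26 fold changes above 0. ADAR, an abundant one that edits double-stranded RNA, was at a log2 fold change of 0.089 (edgeR adjusted p = 0.257). Of 30 genes of the microRNA machinery 3 were higher and 2 lower, with a median whose sign depended on the scaling (4 and 4 without replicate 3). AGO4, an Argonaute, fell by 0.37 (edgeR adjusted p = 0.0376), and DCP2, a decapping enzyme, rose by 0.38 and was lost under the block (edgeR adjusted p = 0.238). Of 25 hypoxia genes 5 were higher and 1 lower (3 and 2 under the block, 1 and 1 with the GC correction), of which CXCR4 and ARNT on the higher side and PFKFB3 on the lower were lost under the block (edgeR adjusted p = 0.274, 0.091 and 0.384). Apart from the genes given with a value under the GC correction, each gene described whose call was lost with it was lost under the block as well. PFKFB3 was also lost without replicate 3 (log2 fold change -0.27, edgeR adjusted p = 0.0914).

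A list of 11 putative targets had been picked on these libraries, so its direction is not independent evidence. All 11 were lower at 20 nM (median log2 fold change -0.51). Without replicate 3, 11 of 11 were still lower (median -0.50). The smallest changes were those of SYNJ2BP, MTOR and ADD2 (-0.31, -0.32 and -0.33). The host gene MGAT4B was at 148, 157 and 158 CPM in Ctrl. and 157, 159 and 196 CPM at 20 nM (log2 fold change 0.01, SE 0.05, edgeR adjusted p = 0.92).

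The shares of lower genes followed the kind of seed match in the UTR. Of 739 genes with an 8-mer, 14.1% were lower and 5.68% higher. Of 1316 with the 7-mer of bases 2 to 8, 9.8% were lower and 7.75% higher, and of 1458 with the 7-mer with A, 7.68% and 9.33%. With only a 6-mer (2386 genes) the shares were 6.41% and 9.26%, and with none (8052 genes) 4.53% and 8.15%. Over all 13951 genes with a UTR they were 6.19% and 8.29%. Lower genes outnumbered higher ones among genes with the 8-mer and with the 7-mer of bases 2 to 8. The share also followed the number of 7-mer or 8-mer matches: 4.96% of genes with 0 were lower, 9.14% with 1, 10.9% with 2 and 13.5% with 3 or more. Messages with many matches have long UTRs, with a median of 6140 bases for 3 or more matches against 1490 for 0. Within 4 equal bins of UTR length, genes with a 7-mer or 8-mer were lower in 10.6%, 8.32%, 9.78% and 10.2% of cases from the shortest to the longest bin, and genes with no 6-mer in 3.49%, 5.31%, 5.18% and 4.82%. The share was higher with a match in each of the 4 bins.

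The kinds of match also differed in size of change. The median log2 fold change was -0.043 for genes with an 8-mer, -0.026 and -0.0071 for the 7-mers of bases 2 to 8 and with A, 0.0084 for the 6-mer and 0.015 for none. Without replicate 3 these were -0.051, -0.031, -0.020, 0.00034 and 0.017. In replicate 3 alone, the difference from the Ctrl. mean was -0.080, -0.043, -0.097, -0.038 and 0.071, and this order did not follow the kind of match. The genes of these classes differ in GC content, with a median of 43.9% for the 7-mer with A and 51.0% for none. Among genes with no match in the UTR, 6.32% of those with a 7-mer or 8-mer in the coding sequence (1108 genes) were lower, against 4.25% of those without (6944 genes). For the other arm of the hairpin, miR-1229-5p, whose seed differs, the lower share was 7.16% for the 8-mer, 6.63% and 6.5% for the 7-mers, 7.61% for the 6-mer and 5.73% for none.

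A seed score was computed per library as the mean log2 CPM, centred per gene over the 6 libraries, of 3513 genes with a 7-mer or 8-mer minus that of 8052 without the 6-mer, after adjustment for the length and GC content of the UTR. The score was 0.030, 0.018 and 0.024 in Ctrl. replicates 1 to 3 and -0.031, -0.031 and -0.0097 in the same replicates at 20 nM. All 3 libraries of 20 nM lay below all 3 of Ctrl., with replicate 3 nearest to them. The mean was 0.024 ± 0.0059 in Ctrl. and -0.024 ± 0.012 at 20 nM (SD, n = 3). The difference of -0.048 had a two-sided exact permutation p = 0.1, the smallest that 3 against 3 libraries allow. Its 20 splits did not keep same-numbered replicates paired, and a permutation that did could not reach so small a value.

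**Figure D5:**
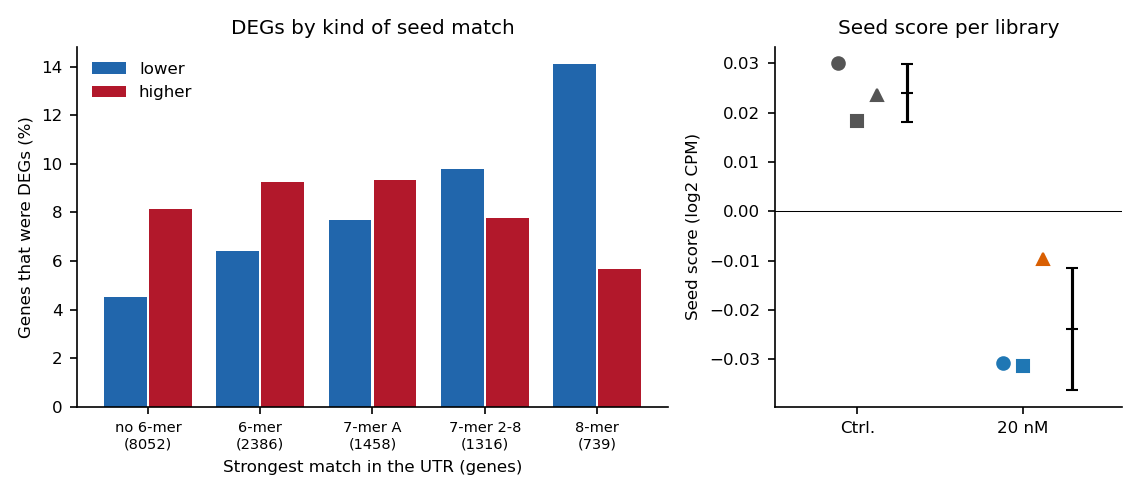
Left, share of genes that were DEGs (y axis, %) by the strongest seed match in the UTR, lower in blue and higher in red, with the number of genes in parentheses. Right, seed score of each library (y axis, log2 CPM) with mean and SD beside the points. The lower share climbs from 4.53% to 14.1%, and replicate 3 (triangle) has the highest score at 20 nM, -0.0097.

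At the median over 11677 genes of at least 5 CPM, 20 nM replicate 3 lay 0.23 from the mean of replicates 1 and 2 on the log2 scale, either way, against 0.085 between replicates 1 and 2. The genes furthest out, chosen by that library and so without a test, were pseudogenes, readthrough genes and genes without a symbol. HMGB1P5, a pseudogene of HMGB1, was at 12.6, 14.7 and 12.7 CPM in Ctrl. and 13.4, 15.7 and 73.4 CPM at 20 nM, and ITGB1P1, a pseudogene of ITGB1, at 3.64, 5.41 and 0.00 CPM in Ctrl. and 2.72, 4.69 and 30.9 CPM at 20 nM. RPL36A-HNRNPH2, a readthrough gene, was at 10.3, 11.1 and 16.3 CPM in Ctrl. and 7.57, 13.5 and 0.932 CPM at 20 nM. Such genes share sequence with a parent gene, so their estimated counts are uncertain. No called gene of at least 5 CPM had an adjusted p above 0.2 in edgeR without replicate 3, where the highest was 0.18. The surrogate variable already set that library apart, so this does not test how far the calls depend on it. Called lower genes with a UTR had a median GC content of 50.2% and called higher genes 46.1%, against 48.6% of the others, and lay 0.12 above and 0.10 below the other 20 nM libraries in replicate 3.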

How the data were processed

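Sample titles gave groups and replicate numbers. The authors mapped reads with Salmon (GRCh38.p13, Ensembl 107) and summed them to genes, per the study's methods and the submitters' processing notes. The deposited table holds estimated counts, of which 86.6% to 91% per library are not whole, for genes left by filterByExpr. Further deposited tables, with the authors' log2 fold changes and p-values and with log2 values corrected for surrogate variables, were not used. Estimated counts were rounded and analysed with edgeR 4.0.16 (R 4.3.3): TMM scaling, filterByExpr (0 genes removed), 1 surrogate variable from sva 3.50.0 (prior count 2, seed 1), glmQLFit and glmQLFTest over all 9 libraries, Benjamini-Hochberg threshold 0.05. The surrogate variable had its largest loading, 0.91, in 20 nM replicate 3. CPM are not corrected for it, so fold changes can differ from ratios of CPM. Standard errors were obtained by dividing the fold change by the root of the F statistic. Library totals were 17.4 to 28.2 M. The fits were tested on simulated data, in which the outlying library had random noise with no trend along GC content and no pairing of replicates. That simulation therefore does not show how the fits handle the deviation of 20 nM replicate 3.

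The members and gene lists were chosen with earlier results of these data known. Genes described individually had at least 5 CPM, no overlap between groups and the same call without 20 nM replicate 3: the 15 lower and 15 higher by fold change and the 5 each by level. In each list, up to 3 called members per direction by fold change are named, or the 2 most abundant where none passed, besides the study's targets, the markers called, MGAT4B and genes furthest out in replicate 3; some are not reported here. UTRs came from GENCODE 44 (14105 genes matched by identifier, 768 by symbol, 70 not), of at least 50 bases. Same-numbered libraries deviated together (r = 0.30, 0.15 and 0.14 across genes for replicates 1 to 3), so the replicate numbers of the titles were taken to pair the samples. The block, without the surrogate variable unless stated, is given where it changes a call. Alternatives were other scalings, filters, tests (DESeq2 1.42.0), surrogate variables, a block, libraries left out and, chosen after seeing the data, a GC correction. Genes with near-identical copies, overlapping or antisense genes may share reads, since use of strand is not stated. Other steps used Python 3.11.15 with matplotlib 3.10.9, scipy 1.17.1, pandas 2.3.3 and numpy 2.4.6.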

Additional observations from a re-analysis of the deposited data

How the results depend on the processing

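The number of DEGs, 2074, stayed between 1826 (DESeq2) and 2578 (the 6 libraries alone with 1 surrogate variable) under other scalings, filters and tests. It was 954 with no surrogate variable, 344 with the 6 libraries alone and no surrogate variable, 3884 with the replicate block beside the surrogate variable, 3465 with the block and the GC correction, and 4370 when 20 nM replicate 3 was left out and the number of surrogate variables estimated again. With the block but no surrogate variable 2039 genes passed, of which 1282 were shared. Leaving out 1 library at a time gave 1074 to 2656, with the lowest values without 20 nM replicate 2 (1074) and replicate 1 (1321) and the highest without replicate 3. The higher share was 56.2% with TMM, 52.0% with library totals and 49.7% with upper quartile scaling, and no scaling moved the median of all genes beyond -0.0146. The causes of these differences were not tested.

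Of 156 genes described and called, 62 were called in all 28 alternatives. Without 20 nM replicate 1, 2 or 3, 36, 38 and 1 calls were lost, without Ctrl. replicate 1, 2 or 3, 20, 9 and 26, without any 10 nM library at most 7, with no surrogate variable 58, and under the replicate block 34. The p-values under the block stand beside these 34 genes in the report. The block in place of the surrogate variable changed no other call of a gene described there. Beside the surrogate variable it lost TH and STMN4 and added MT-CO1 and MT-CO3. Signs turned in 21 cases. With no surrogate variable GADD45A was at 0.067, TUBB3 at 0.11, NDUFB2 at 0.14 and MT-CO3 at -0.21. In the 6 libraries alone with no surrogate variable these were 0.058, 0.10, 0.13 and -0.22, and MT-CO3 was at -0.071 with 1 surrogate variable. Under the block TUBB3 was at 0.065, NDUFB2 at 0.10, MT-CO3 at -0.25 and LUM at -0.0072. With the GC correction and no surrogate variable GADD45A was at 0.029 and NDUFB2 at 0.18, and with the block NDUFB2 was at 0.13. With 1 library left out MT-CO1 lay between -0.33 and 0.11 and MT-CO3 between -0.19 and 0.14, and the values past 0 were those without 20 nM replicate 2 and without 20 nM replicate 1. MGAT4B was at -0.000112 with library totals, -0.0067 with upper quartile scaling and between -0.021 (without Ctrl. replicate 1) and 0.038 with 1 library left out.

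The seed score difference lay between -0.077 (no adjustment) and -0.033 (6-mers counted as matches) in 12 alternatives, and between -0.055 and -0.044 with 1 library left out. Depth limits genes under 5 CPM, which hold 56 of the higher and 40 of the lower DEGs.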
